A study of Mus musculus with 30 samples.

Results

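The genes described here are the FoxO transcription factors of muscle stem cells and the atrophy and metabolic genes that FoxO factors are known to control. They were 8 of the 19938 genes measured: the factors Foxo1, Foxo3 and Foxo4, the muscle ubiquitin ligases Fbxo32 and Trim63, and the regulators Klf15, Sesn1 and Bcl6. They were chosen by name from what is known of the pathway, but with earlier results of these data known. Counts among them set against all genes are therefore descriptive. Each was read from its brightest probe set with a single gene symbol, and each of the 8 had exactly 1 such probe set. The arrays measured satellite cells, which are the resident stem cells of muscle, sorted from mouse hindlimb muscle that was uninjured (quiescent satellite cells, QSCs) or had been injured with BaCl2 36, 60 or 84 h earlier (activated satellite cells, ASCs). Cells came from 2 sorts: VCAM+/CD31-/CD45-/Sca1- cells of wild-type C57BL6 mice, and YFP+ cells of Pax7CreER/+; ROSA26eYFP/+ mice given tamoxifen, in which YFP marks cells that expressed Pax7 at the time of tamoxifen, and the progeny of those cells. Young mice were 2 to 3 months old and gave QSCs and ASCs at all 3 times in both sorts. Old mice were 22 to 24 months old and gave VCAM-sorted QSCs and 60 h ASCs only. That made 10 groups of 3 arrays, 30 in all. Whether separate animals gave the 3 arrays of a group is left unsaid by the labels, so each p-value measures the spread between arrays, which may be technical.

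FoxO proteins are forkhead transcription factors that stay in the cytoplasm while insulin and IGF signalling through PI3K and Akt keeps them phosphorylated, and enter the nucleus when that signal is low. In muscle fibres they are best known for turning on the atrophy program, in which Fbxo32 (atrogin-1, the substrate receptor of an SCF ubiquitin ligase) and Trim63 (MuRF1, a RING-finger ligase of myofibrillar proteins) mark muscle protein for the proteasome. In muscle stem cells they are known for a part in holding cells in quiescence. Klf15 is a zinc-finger factor induced by glucocorticoids, Sesn1 encodes a sestrin that restrains mTORC1 and is also a p53 target, and Bcl6 encodes a transcriptional repressor. The arrays read transcripts only, so the phosphorylation and the location of FoxO proteins were not measured.

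Promoter windows were read to see whether the letters of a FoxO site stand near the starts of these genes. RefSeq windows of 300 bases (250 before the start and 50 after it, build GRCm38.p6) were held for 6 of the 8 genes, 8 windows in all. The FoxO motif GTAAACA was searched on both strands and was found in 2 of the 8 windows, those shown here, and in 3.65% of all 32851 windows of that length. The Trim63 window lies at chr4:134314870-134315169 on the plus strand, and the Sesn1 window, the first of 2 for this gene, at chr10:41810324-41810623 on the plus strand. Capitals mark the motif, which reads on the minus strand in both windows.
Trim63: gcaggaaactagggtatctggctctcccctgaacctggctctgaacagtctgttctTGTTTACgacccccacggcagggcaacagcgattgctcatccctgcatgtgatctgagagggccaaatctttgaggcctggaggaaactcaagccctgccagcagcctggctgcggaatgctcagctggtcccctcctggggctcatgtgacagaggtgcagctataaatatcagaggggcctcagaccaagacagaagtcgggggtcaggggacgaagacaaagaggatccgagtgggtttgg
Sesn1: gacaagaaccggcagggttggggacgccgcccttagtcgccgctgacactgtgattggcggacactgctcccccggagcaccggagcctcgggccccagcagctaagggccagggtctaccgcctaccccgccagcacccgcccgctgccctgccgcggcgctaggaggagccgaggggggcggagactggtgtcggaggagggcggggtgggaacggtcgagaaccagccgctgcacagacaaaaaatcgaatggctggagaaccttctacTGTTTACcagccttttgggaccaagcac

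Counted from the start as position 1, with -1 just before it, the Trim63 match ran from -194 to -188. The glucocorticoid receptor half-site AGAACA, searched in the same way, lay directly beside it at -200 to -195, without overlap, and an E-box CAGCTG lay at -72 to -67. In Sesn1 the FoxO letters stood at 23 to 29, downstream of the start. AGAACA was found in 19.0% of all windows and in 2 of the 8, the other being the second Bcl6 window, while CAGCTG was found in 16.3% of all windows and in the Trim63 window alone of the 8. A match is a run of letters and was not tested as a binding site.

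Values are given on the log2 scale of the array, where a step of 1 is a 2-fold difference, as mean ± SD of 3 arrays, and a level is compared only with the same gene's level in another group. Array medians lay between 7.03 and 7.16. A gene was called changed when its Benjamini-Hochberg adjusted p over all 19938 genes was under 0.05 and its fold was at least 1.5; "rose" and "fell" are used of called changes only. All comparisons of injured young cells with one QSC group share those QSC arrays.

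Foxo1 transcript was high in quiescent cells and fell further than the other 7 at 60 and 84 h in both sorts. In the young VCAM sort it stood at 10.51, 10.53 and 10.52 in the 3 QSC arrays, at 9.26, 9.18 and 9.28 at 36 h, at 7.97, 8.26 and 8.23 at 60 h, and at 8.40, 8.42 and 8.28 at 84 h. Every QSC array lay above every ASC array, and the groups did not overlap. The log2 changes from QSCs were -1.28 ± 0.06 (SE), -2.37 and -2.15, with adjusted p of 7.4e-16, 8.5e-22 and 8.3e-21. The step from 60 to 84 h was not called (log2 change 0.21). In the YFP sort the 3 QSC arrays read 10.08, 10.17 and 10.29, the 36 h arrays 9.69, 9.75 and 9.72, the 60 h arrays 8.31, 8.36 and 8.33, and the 84 h arrays 8.59, 8.49 and 8.51. Here the 36 h change of -0.46 did not reach the fold threshold, and the drop lay mainly between 36 and 60 h, where Foxo1 fell by 1.39 (adjusted p = 3.6e-16) and was the only called member. In the VCAM sort the same interval held a fall of 1.08.

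Foxo3, the second FoxO factor, fell in both sorts at every time after injury. VCAM-sorted QSCs read 10.37, 10.31 and 10.40, and ASCs read 9.42, 9.32 and 9.36 at 36 h, 8.82, 8.91 and 8.89 at 60 h, and 8.94, 8.92 and 8.99 at 84 h. No ASC array came near the QSC arrays. The changes were -0.99, -1.48 and -1.41 (SE 0.05), with adjusted p of 1.1e-15, 1.1e-19 and 4.3e-19. In YFP+ cells, with QSCs at 10.27 ± 0.10, they were -0.67, -1.02 and -1.11. Most of the change was present at 36 h, and the further steps from 36 to 60 h, of -0.49 and -0.35, were not called.

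Foxo4 did not share this course. VCAM-sorted QSCs read 8.96, 8.98 and 9.04, and Foxo4 fell at 36 h to 8.19, 8.13 and 8.25 (log2 change -0.80, adjusted p = 8.0e-13). At 60 h the arrays read 8.80, 8.71 and 8.86, a rise of 0.60 over 36 h that was just past the fold threshold. At 84 h they read 9.16, 9.29 and 9.36, above every QSC array of that sort, with a log2 change from QSCs of 0.28 that was not called. In YFP+ cells no change from QSCs was called: Foxo4 stood at 8.73 ± 0.07 in QSCs, 8.63 ± 0.05 at 36 h, 8.84 ± 0.04 at 60 h and 9.25 ± 0.03 at 84 h. The rise from 36 to 60 h in the VCAM sort was 0.57 without the second 36 h array, 0.56 without the third 60 h array and 0.53 after quantile normalization, each under the fold threshold.

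**Figure D1:**
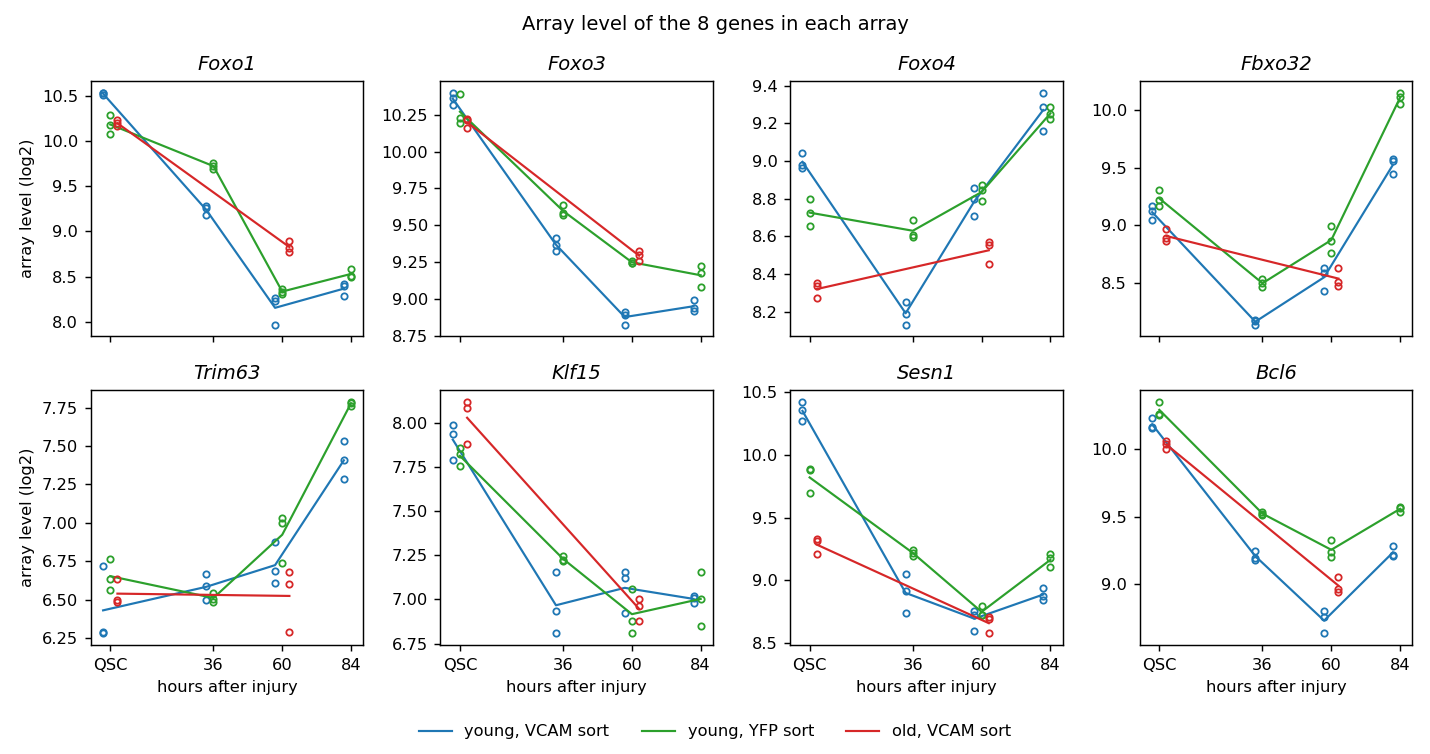
Array level (log2; the vertical scale differs between panels) of each of the 8 genes in every array, against hours after injury, with uninjured cells marked QSC at the left. Circles are single arrays, offset sideways by group, and lines join the means of 3 arrays for the young VCAM sort, the young YFP sort and the old VCAM sort. Foxo1, Foxo3, Klf15, Sesn1 and Bcl6 are highest in QSCs, while Fbxo32 and Trim63 are highest at 84 h.

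Both ubiquitin ligase genes rose between 60 and 84 h. Fbxo32 stood at 9.05, 9.13 and 9.17 in VCAM-sorted QSCs and fell at 36 h to 8.14, 8.18 and 8.18 (log2 change -0.95, adjusted p = 2.9e-13). It read 8.43, 8.63 and 8.59 at 60 h, and at 84 h it read 9.44, 9.57 and 9.55, higher than all QSC arrays. From 60 to 84 h it rose by 0.97 in the VCAM sort (adjusted p = 2.2e-12) and by 1.23 in the YFP sort (adjusted p = 1.0e-14). In YFP+ cells the levels were 9.22, 9.17 and 9.31 in QSCs, 8.50, 8.46 and 8.54 at 36 h, 8.87, 8.76 and 8.99 at 60 h, and 10.05, 10.15 and 10.11 at 84 h. Against QSCs, Fbxo32 fell by 0.73 at 36 h and rose by 0.87 at 84 h in YFP+ cells, whereas in the VCAM sort its 84 h change of 0.41 was under the fold threshold. At 60 h the change was -0.56 in the VCAM sort and -0.36 in the YFP sort, neither called; the first was past the threshold after quantile normalization (-0.64) and without the first QSC array or the second 60 h array (-0.60 each).

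Trim63 stayed low until 84 h, near or below the array medians of 7.03 to 7.16. Its VCAM arrays read 6.72, 6.29 and 6.28 in QSCs, 6.66, 6.50 and 6.59 at 36 h, 6.88, 6.69 and 6.61 at 60 h, and 7.53, 7.41 and 7.28 at 84 h. Its YFP arrays read 6.63, 6.76 and 6.57 in QSCs, 6.51, 6.54 and 6.48 at 36 h, between 6.74 and 7.03 at 60 h, and 7.76, 7.78 and 7.79 at 84 h. In each sort the 84 h arrays lay above all others, and the QSC, 36 h and 60 h arrays of the VCAM sort overlapped. Trim63 rose at 84 h by 0.98 ± 0.11 (SE) over QSCs in the VCAM sort (adjusted p = 6.9e-09) and by 1.13 in the YFP sort (adjusted p = 4.6e-10). The steps from 60 to 84 h were 0.68 and 0.86, both called. Before 84 h no change of Trim63 from QSCs was called, the values lying between -0.14 and 0.29. Over the 30 arrays, 40.1% of genes had a lower mean than Trim63.

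Genes of muscle differentiation were higher at the same time. The mean of 9 differentiating-myocyte markers, among them Myog and Myh3, lay between 7.49 and 7.60 in VCAM-sorted QSCs, between 9.09 and 9.19 at 60 h and between 11.10 and 11.15 at 84 h. At 84 h all 9 had risen over QSCs in both sorts, and 9 of 15 adult myofiber markers had risen in each. Myh2 (-0.02) and Pvalb (-0.17), which mark mature fast fibres, were not called in the VCAM sort. The part of these markers in the rise of Fbxo32 and Trim63 was not tested. In sorted bulk samples, fewer cells of a type and less RNA per cell cannot be told apart.

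Klf15, Sesn1 and Bcl6 were all lower after injury. Sesn1 read 10.27, 10.36 and 10.43 in VCAM-sorted QSCs, 8.74, 8.92 and 9.05 at 36 h, 8.60, 8.73 and 8.76 at 60 h, and 8.85, 8.88 and 8.94 at 84 h. Most of its fall was thus present at 36 h, where it fell by 1.45 (adjusted p = 2.3e-16), the largest change of the 8 at that time. In YFP+ cells Sesn1 began lower, at 9.89, 9.69 and 9.88, and read 9.24, 9.22 and 9.19 at 36 h, 8.72, 8.73 and 8.80 at 60 h, and 9.18, 9.21 and 9.11 at 84 h. It fell by 0.60, 1.07 and 0.66 in that sort. The 36 and 84 h changes were -0.53 and -0.58 when each array was centred on its median, which took them under the fold threshold, and the 36 h change was -0.57 without the first YFP QSC array and -0.57 without the third.

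Bcl6 read 10.17, 10.16 and 10.23 in VCAM-sorted QSCs, 9.18, 9.20 and 9.25 at 36 h, 8.63, 8.76 and 8.80 at 60 h, and 9.22, 9.28 and 9.21 at 84 h. It fell by 0.98, 1.46 and 0.95 (SE 0.05), lowest at 60 h, and the partial return from 60 to 84 h of 0.51 was not called. YFP+ cells had the same low point, with falls of 0.77, 1.04 and 0.73. Klf15 stood at 7.99, 7.93 and 7.79 in VCAM-sorted QSCs and between 6.81 and 7.16 in all 9 ASC arrays of that sort. It fell by 0.94, 0.84 and 0.90 (SE 0.09), with no called step between the injured groups. In YFP+ cells its 36 h change of -0.58 missed the fold threshold by a small margin, being -0.61 without the second QSC array and -0.59 without the third 36 h array, and it fell by 0.90 and 0.81 at 60 and 84 h.

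**Figure D2:**
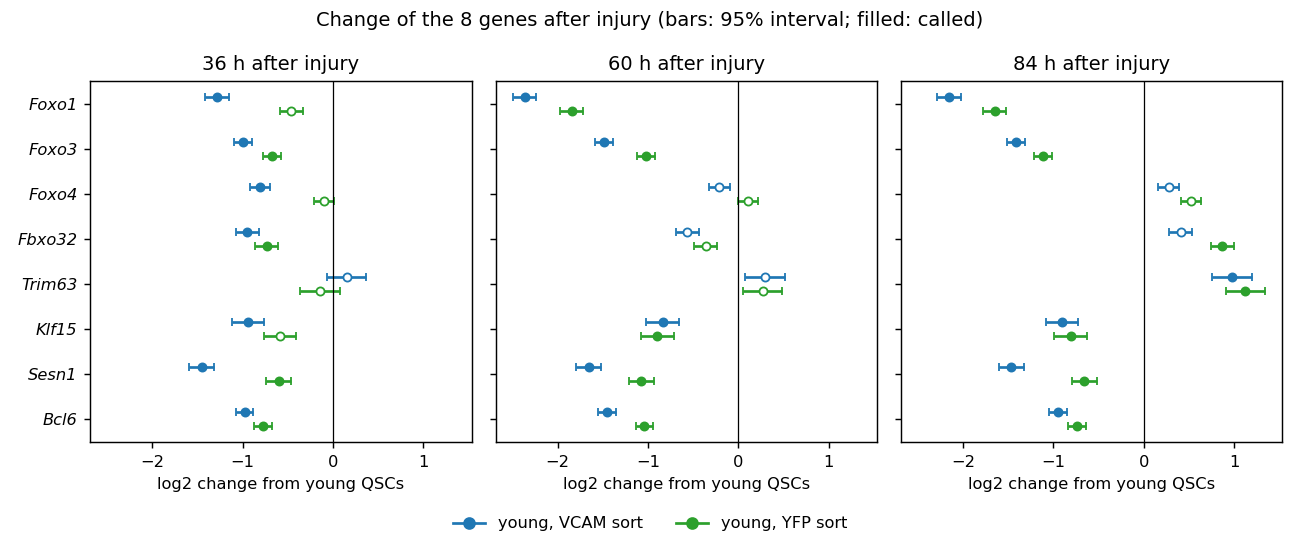
Log2 change of each of the 8 genes from young QSCs of the same sort at 36, 60 and 84 h after injury; points are fitted changes, bars are 95% confidence intervals, and filled points were called. At 60 h the same 5 genes are called in both sorts, and at 84 h Trim63 lies to the right of zero in both.

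In counts, 7 of the 8 genes fell at 36 h in the VCAM sort, against 9.72% of all genes that fell in that comparison; Trim63 was the exception. At 60 h 5 fell (Foxo1, Foxo3, Klf15, Sesn1 and Bcl6), against 12.6% of all genes. At 84 h the same 5 fell, against 11.2% of all genes, and 1 rose, against 16.4%. The YFP sort gave 4 falls at 36 h (Foxo3, Fbxo32, Sesn1 and Bcl6), against 6.14% of all genes, 5 at 60 h against 12.8%, and 5 at 84 h against 11.2%. At 84 h 2 rose in that sort, against 17.0% of all genes. The median log2 change over the 8 was -0.96, -1.15 and -0.93 at the 3 times in the VCAM sort and -0.59, -0.96 and -0.70 in the YFP sort, while the median over all genes lay between -0.08 and -0.01.

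Between injured groups, 2 of the 8 were called from 36 to 60 h in the VCAM sort (Foxo1 down, Foxo4 up), against 14.8% of all genes in either direction, and 1 in the YFP sort (Foxo1), against 17.3%. From 60 to 84 h 2 rose in each sort, Fbxo32 and Trim63 in both, against 3.22% of all genes in the VCAM sort and 4.66% in the YFP sort. None fell in that interval by limma, against 0.732% of all genes in the VCAM sort and 2.19% in the YFP sort. In either sort 0 of the 8 were lower at 84 h with an unadjusted p under 0.05, against 17.6% and 25.3% of all genes.

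The order of the groups differed between the genes in the same way. Foxo1 and Sesn1 were highest in young VCAM-sorted QSCs, at 10.52 ± 0.01 and 10.35 ± 0.08, with no overlap with the next group. For Foxo3 and Klf15 the 3 QSC groups held the top places, and each overlapped with its neighbour in the order, while the first and the last of them did not overlap. For Bcl6 the top place was that of YFP+ QSCs, at 10.29 ± 0.05, above VCAM-sorted QSCs at 10.19 ± 0.04. Foxo4, Fbxo32 and Trim63 were highest in the 84 h groups, and these 2 groups overlapped for Foxo4 only. Of the 9 pairs of neighbours in each gene's order, 7 overlapped for Trim63 and for Klf15, 5 for Sesn1, 4 for Foxo4, 3 for Foxo3 and for Fbxo32, and 2 for Foxo1 and for Bcl6.

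Across the 10 group means the genes fell into 2 patterns. Foxo1, Foxo3, Klf15, Sesn1 and Bcl6 correlated with each other at Pearson's r of 0.81 to 0.97, the closest pair being Foxo1 and Foxo3 at 0.97. Foxo4, Fbxo32 and Trim63 formed the other, at 0.74 to 0.81. Between the patterns r ran from -0.60 for Foxo1 and Trim63 to 0.37 for Fbxo32 and Bcl6. These values describe 10 groups that share sorts and times, and they carry no test.

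**Figure D3:**
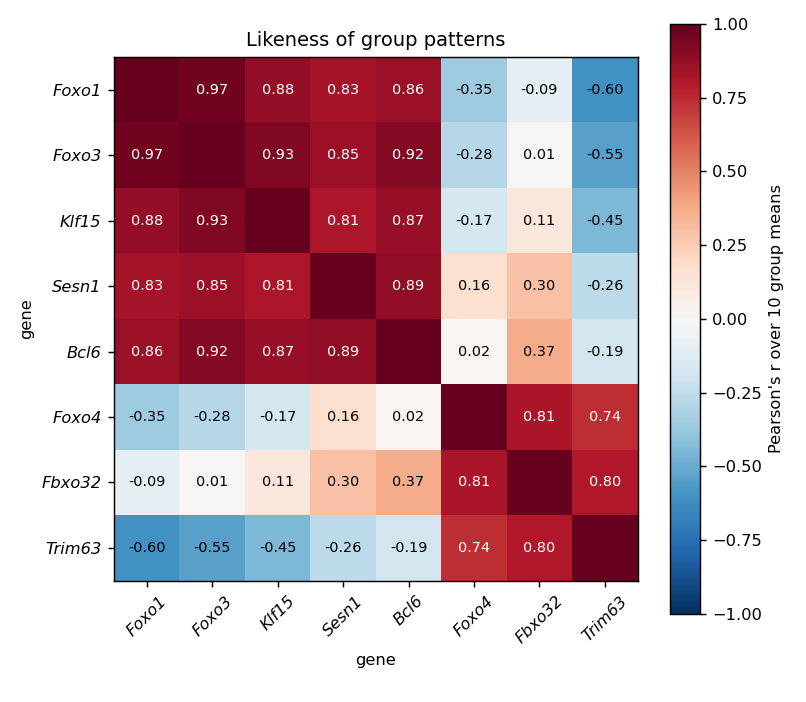
Pearson's r between the group patterns of each pair of the 8 genes, over the means of the 10 groups, as colour and as number. The 5 genes at the upper left have r of 0.81 to 0.97 with each other, and Foxo4, Fbxo32 and Trim63 have r of 0.74 to 0.81.

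Among 6061 genes whose group means spanned at least 1 on the log2 scale, the 3 whose pattern was most like that of Foxo1 were Atf3, Cldn1 and Abca8b, each with r of 0.99 or above over the 10 groups (0.996, 0.995 and 0.995). For Foxo3 they were Jade2 (0.991), Sowahc (0.989) and Chrdl2 (0.985), and for Klf15 Rab11fip3 (0.994), En1 (0.993) and Vwa3b (0.992). For Sesn1 they were Popdc2, Kbtbd7 and Gstm7, at 0.98, and for Bcl6 Kdm5b, Tcaf2 and Ezh1, at 0.98. Trim63 was closest to the sarcomere genes Myom2 (0.990), Lmod3 (0.987) and Myl1 (0.983). Fbxo32 was closest to Hspb8 (0.967), Usp11 (0.960) and Ift81 (0.958), and Foxo4 to Fitm1 (0.966), Zfp568 (0.965) and Ankmy2 (0.943).

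Other genes of the pathway were followed as lists. Their falls and 84 h rises are read against the shares of all genes given above, and their rises at 36 and 60 h against 13.2% and 16.6% of all genes in the VCAM sort and 10.1% and 17.2% in the YFP sort. Of 23 other FoxO targets measured, 12 fell and 2 rose at 36 h in the VCAM sort, 14 fell and 2 rose at 60 h, and 11 fell and 1 rose at 84 h, with median changes of -0.66, -0.81 and -0.56. Txnip, an inhibitor of thioredoxin, fell by 3.28 at 60 h. Irs2, an adaptor of the insulin receptor, fell by 2.57, and the autophagy genes Gabarapl1 and Pink1 fell by 2.24 and 2.16. Bnip3, a mitophagy receptor, rose by 1.15 at 60 h and by 1.44 at 84 h. In YFP+ cells 10, 14 and 9 of the 23 fell and 1 rose at each time, again Bnip3.

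Genes that act on FoxO proteins were divided. Of 27 measured, 9, 7 and 8 fell and 3, 4 and 4 rose at the 3 times in the VCAM sort. At 60 h Irs2 and the PI3K regulatory subunit gene Pik3r1 (-1.71) fell, whereas the catalytic subunit gene Pik3cb (2.22), the ligase gene Skp2 (1.86) and Akt1 (1.14) rose. The deacetylase gene Sirt2 fell by 1.39. Of the FoxO relatives and sestrins, Sesn2 fell at every time in both sorts, by 0.61 to 1.89, Sesn3 fell at 60 h in the VCAM sort alone (-0.65), and Foxo6 was not called in any injury comparison.

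The list of the glucocorticoid receptor and its targets had the largest share of falls of these lists in the VCAM sort. Of its 13 genes, 9 fell at 36 h, 11 at 60 h and 12 at 84 h in the VCAM sort, with medians of -0.78, -1.71 and -1.34, and 5, 10 and 10 fell in the YFP sort. Cebpd fell by 4.29, Zbtb16 by 3.43 and Klf9 by 2.62 at 60 h in the VCAM sort, and the receptor gene itself, Nr3c1, fell by 1.27. Fkbp5 was the exception, with a rise of 0.76 at 36 h and of 0.61 at 60 h.

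The other atrophy ubiquitin genes did not move as one. Of 15, 2, 3 and 5 rose and 2, 3 and 3 fell at the 3 times in the VCAM sort. Trim55, the sarcomeric relative of Trim63, rose by 2.07 at 84 h in the VCAM sort and by 2.25 in the YFP sort, and Trim54, another relative, rose by 0.60 and 0.64. The proteasomal deubiquitinase gene Usp14 rose by 1.63 at 84 h, and Ube2b, an E2 enzyme gene long studied in wasting muscle, fell by 0.98. Of 11 p53 list genes 3 fell at each time in the VCAM sort. Among them Btg2 fell by 3.87 at 60 h, while Ccng1 rose by 1.47 to 2.22. Of 4 relatives and corepressors of Bcl6, Bcor fell at 36 h in the VCAM sort (-0.82), Bcl6b (1.196) and Prdm1 (1.46) rose at 36 h in the YFP sort, and Bcl6b fell at 84 h in both sorts (-0.63 and -0.76). The genes Irs2, Pik3r1, Sesn2 and a few others stand in more than 1 list, so the lists are not independent.

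**Figure D4:**
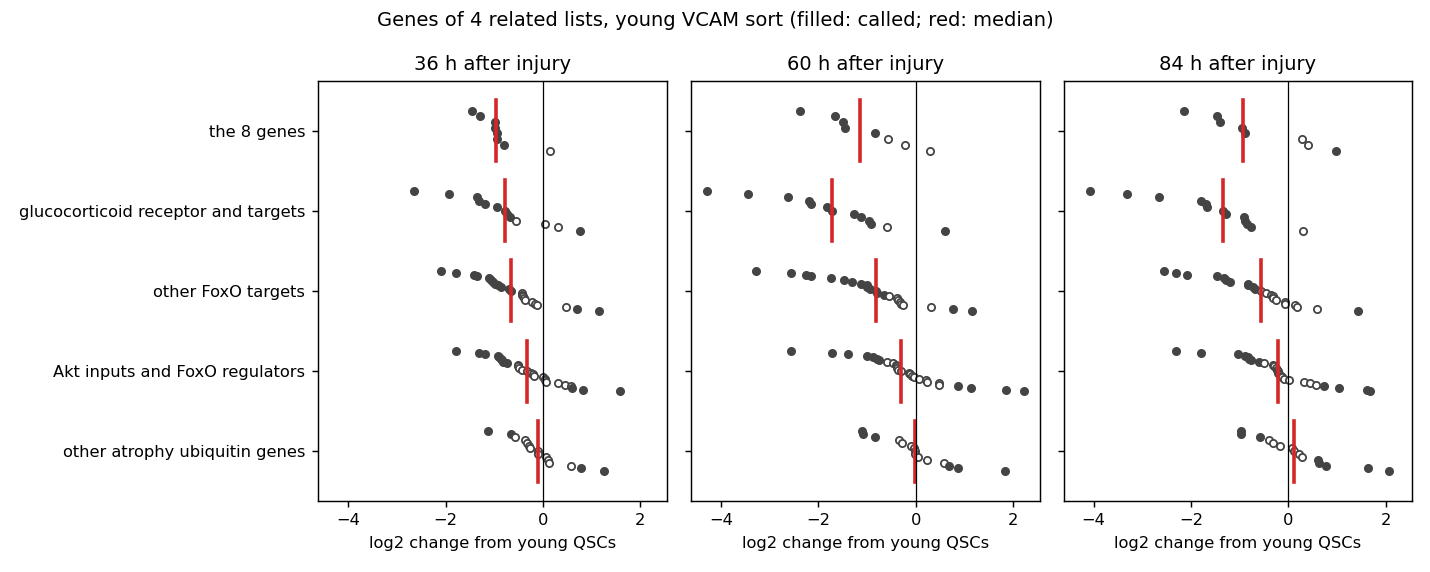
Log2 change from young QSCs in the VCAM sort at 36, 60 and 84 h for the 8 genes and for the measured genes of 4 related lists; each circle is a gene, filled where called, the red bar is the list's median, and the vertical position within a list only spreads the points. The glucocorticoid list has the lowest median at 60 h (-1.71), and the ubiquitin list's medians lie near zero.

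Markers of other cells moved with injury as well. The mean of 14 monocyte and macrophage markers lay between 6.55 and 6.62 in VCAM-sorted QSCs, 9.89 and 10.05 at 36 h, 7.91 and 8.01 at 60 h, and 8.70 and 8.72 at 84 h, and all 14 had risen at 36 h. The mean of 12 satellite cell markers lay between 12.05 and 12.08 in QSCs and between 10.48 and 10.97 in the young ASC arrays of that sort. Pax7, the defining gene of satellite cells, stood at 11.68 in VCAM-sorted QSCs and 8.95 at 36 h. Pecam1, which encodes the CD31 that the sort excludes, stood at 9.57 and 9.59. The mean of all 11 endothelial markers was lower at 36 h, between 8.58 and 8.64 against 8.89 and 8.94 in QSCs. Of 9 fibroblast markers 5 rose and 1 fell at 36 h, of 11 pericyte and smooth muscle markers 7 fell, and of 7 lymphocyte markers none was called by limma, 1 of them having an unadjusted p under 0.05, against 59.8% of all genes. In young mice the Foxo1 level of ASCs was lowest at 60 h in both sorts, the time at which the macrophage mean of ASCs was lowest too. The endothelial, pericyte and fibroblast means of young ASCs were also lowest then in both sorts, and the satellite cell mean in the VCAM sort. In the YFP sort the satellite cell means at 60 h (10.63 to 10.71) and 84 h (10.66 to 10.70) overlapped. Those of the myocyte and myofiber markers were lowest at other times. The lymphocyte mean was lowest at 84 h in the YFP sort, and in the VCAM sort its 60 and 84 h arrays overlapped. In VCAM-sorted QSCs, where Foxo1 was highest, the macrophage mean was lower still, at 6.60. The part of these markers in the members' changes was not tested.

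Between the sorts at the same time, none of the 8 genes was called by limma. In QSCs 3.55% of all genes were called, and 5 of the 8 had an unadjusted p under 0.05, against 36.9% of all genes. Sesn1 was lower in YFP+ QSCs by 0.53, Foxo1 by 0.34 and Foxo4 by 0.27, all under the fold threshold. At 36 h 5.27% of all genes were called, and 7 of the 8 had an unadjusted p under 0.05, against 44.6% of all genes; all of the 7 were higher in YFP+ cells, by 0.23 to 0.48. At 60 h 1.31% of all genes were called, and 4 of the 8 had an unadjusted p under 0.05, against 25.1% of all genes; Bcl6 had the largest difference (0.53). At 84 h 1.66% of all genes were called, and 6 of the 8 had an unadjusted p under 0.05, against 31.9% of all genes. At that time Fbxo32 was higher in YFP+ cells by 0.58, which became 0.61 without the second young VCAM array, 0.60 without the third or 0.61 without the first YFP array and then passed the threshold.

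The change after injury itself differed between the sorts for some of the genes. At 36 h the change was less negative in YFP+ cells by 0.82 ± 0.09 (SE) for Foxo1 (adjusted p = 4.1e-08), by 0.71 for Foxo4 (adjusted p = 5.3e-08) and by 0.85 for Sesn1 (adjusted p = 7.6e-08), 3 of the 8, against 4.61% of all genes with a difference in that direction. For Foxo1 this set a change of -1.28 in the VCAM sort beside one of -0.46 in the YFP sort. At 60 h 1 of the 8, Sesn1 (0.59), was called, against 2.78% of all genes, and at 84 h 1, Sesn1 again (0.81, adjusted p = 2.9e-07), against 3.84%. The Sesn1 difference at 60 h lay at the threshold, and it ranged from 0.52 to 0.58 and was not called without the second or the third VCAM QSC array, the first VCAM 60 h array, the second YFP QSC array or the third YFP 60 h array. The Sesn1 levels themselves were 9.82 in YFP+ and 10.35 in VCAM-sorted QSCs, and 8.75 and 8.70 at 60 h. The endothelial markers differed at 36 h in the same direction, with the mean of 11 between 8.58 and 8.64 in VCAM-sorted ASCs and between 9.81 and 9.82 in YFP+ ASCs, all 11 being called. Of the satellite cell markers 5 of 12 were higher in YFP+ ASCs, with means between 11.42 and 11.43 against 10.94 and 10.97, as were 4 of 9 differentiating-myocyte and 3 of 11 pericyte markers, of which 1 was lower. Of the macrophage markers 5 of 14 were lower, with means between 9.51 and 9.52 against 9.89 and 10.05. The mean of 9 fibroblast markers was also lower in YFP+ ASCs, between 10.27 and 10.28 against 10.80 and 10.84. Of all genes, 2.49% were called higher and 2.78% lower in YFP+ ASCs at 36 h. The part of these markers in the differences was not tested.

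With age, Sesn1 and Foxo4 were lower in quiescent cells. Old VCAM-sorted QSCs read 9.33, 9.32 and 9.21 for Sesn1, all below the young arrays of 10.27, 10.36 and 10.43, a difference of -1.07 ± 0.07 (SE, adjusted p = 1.2e-12). For Foxo4 they read 8.35, 8.27 and 8.34 against 8.96, 8.98 and 9.04, a difference of -0.68 (adjusted p = 1.4e-10). These were 2 of the 8 genes, against 4.70% of all genes lower in old QSCs. The other 6 were not called: Foxo1 differed by -0.33, Fbxo32 by -0.21, Foxo3 by -0.16, Bcl6 by -0.15, Trim63 by 0.11 and Klf15 by 0.12. Markers were lower in old QSCs as well: 3 of 12 satellite cell markers, with means between 11.72 and 11.76 against 12.05 and 12.08 in young QSCs, 5 of 11 pericyte markers, with means between 10.07 and 10.09 against 10.55 and 10.64, and 4 of 9 differentiating-myocyte markers, with means between 7.08 and 7.12 against 7.49 and 7.60. Other marker means were higher in old QSCs. These were the macrophage (between 6.78 and 6.83 against 6.55 and 6.62), endothelial (9.01 and 9.03 against 8.89 and 8.94) and fibroblast means (9.88 and 9.91 against 9.74 and 9.80). The part of all these markers in the Sesn1 and Foxo4 differences was not tested. The lower Sesn1 level of old QSCs overlapped that of young YFP+ ASCs at 36 h, the other sort. It lay above all young 36 h ASC arrays of the same VCAM sort, which read 8.74, 8.92 and 9.05.

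At 60 h after injury Foxo1 was the gene that was higher in old cells. Old ASCs read 8.81, 8.89 and 8.77 against 7.97, 8.26 and 8.23 in young ones, a difference of 0.67 (adjusted p = 2.4e-09), and 1 of the 8 was called, against 4.75% of all genes. The difference rested in part on the lowest young array, being 0.58 and just under the fold threshold without the first young 60 h array. Foxo3 differed by 0.42, Bcl6 by 0.26 and Foxo4 by -0.26, each with an adjusted p under 0.05 but under the fold threshold. Sesn1, at 8.66 ± 0.07 in old and 8.70 ± 0.08 in young ASCs, differed by -0.04, with a 95% confidence interval from -0.17 to 0.10. The macrophage markers were also higher in old ASCs, 14 of 14, with means between 9.68 and 9.78 against 7.91 and 8.01, as were 8 of 11 endothelial and 6 of 11 pericyte markers, while 4 of 9 differentiating-myocyte markers were lower, against 0.657% of all genes. The mean of 12 satellite cell markers was higher in old ASCs too, between 10.86 and 10.91 against 10.48 and 10.58. That of 9 fibroblast markers was also higher, between 10.07 and 10.09 against 9.28 and 9.34. The mean of 15 adult myofiber markers was lower, with a group mean of 7.033 against 7.296. The part of all these markers in the Foxo1 difference was not tested.

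Within old cells, 5 of the 8 genes fell from QSCs to 60 h, against 11.7% of all genes, and they were the 5 that fell in young cells: Foxo1 by 1.37, Klf15 by 1.08, Bcl6 by 1.05, Foxo3 by 0.91 and Sesn1 by 0.63. The median over all genes in this comparison was -0.11, and when each array was centred on its median the Sesn1 change was -0.54 and no longer called. Foxo1 fell by 2.37 and Sesn1 by 1.66 in young cells, and the difference between the ages was called for both, 1.00 ± 0.09 (SE, adjusted p = 1.4e-09) for Foxo1 and 1.03 (adjusted p = 2.7e-09) for Sesn1. These were 2 of the 8, against 6.81% of all genes with a difference in that direction. For Sesn1 the arrays of the ages lay apart in QSCs and overlapped at 60 h, while for Foxo1 they lay apart in both states, with old cells lower in QSCs and higher at 60 h. Foxo3 differed by 0.58, close under the threshold, and it was called, at 0.59 to 0.60, without the second young QSC array, the second or the third young 60 h array, the first or the third old QSC array, or the third old 60 h array.

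Among the lists, 9 of 13 glucocorticoid genes had a less negative change in old cells, with Ddit4 (1.64), Dusp1 (1.23) and Zbtb16 (1.21) the largest, and 4 of 23 FoxO targets did, Txnip by 1.501. In QSCs themselves, Txnip (-0.87), Cdkn1b (-0.79), Lpl (-0.66) and Cat (-0.65) were the 4 FoxO targets that were lower in old cells, and Sod2 was higher (0.74). Of the genes acting on FoxO proteins, Skp2 (-1.05) and Prkaa1 (-0.81) were lower in old QSCs. None of the 27 was called between old and young 60 h ASCs by limma, against 5.41% of all genes in either direction. In that comparison 12 of the 27 had an unadjusted p under 0.05, against 37.5% of all genes.

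**Figure D5:**
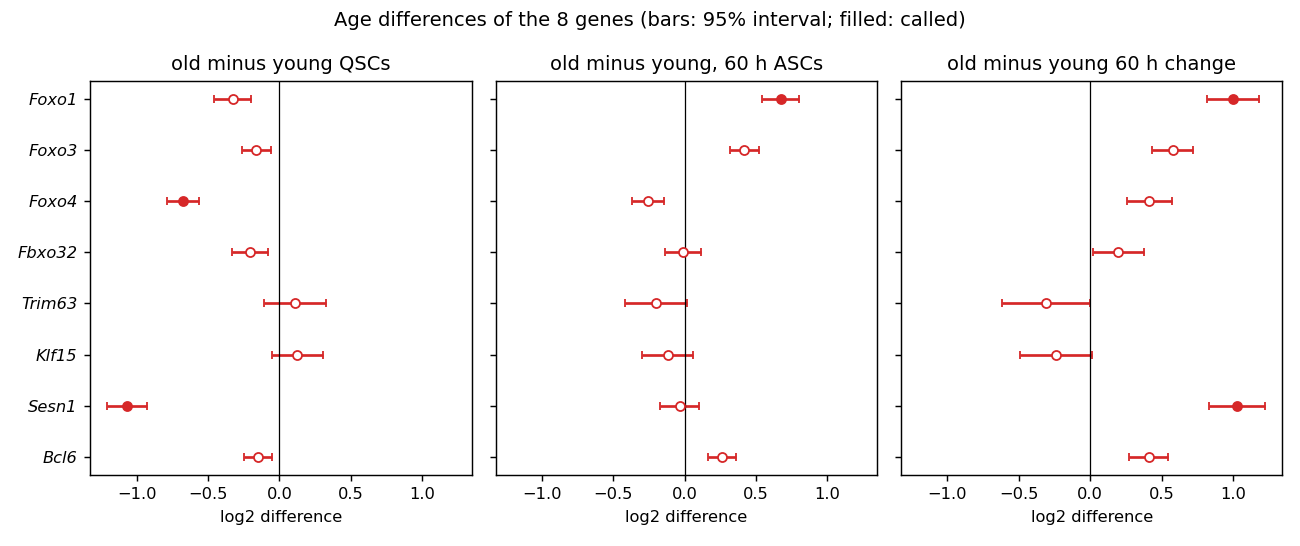
Log2 difference between old and young VCAM-sorted cells for the 8 genes: in QSCs, in 60 h ASCs, and in the change from QSCs to 60 h ASCs; bars are 95% confidence intervals and filled points were called. Foxo4 and Sesn1 are lower in old QSCs, Foxo1 is higher in old 60 h ASCs, and the change differs for Foxo1 and Sesn1.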

How the data were processed

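Total RNA (100 ng per the study's methods) of sorted satellite cells was read on 30 Affymetrix arrays of the Mouse Gene 1.0 ST type. The deposited values are log2 signals that the authors made with Affymetrix Expression Console and RMA, per the submitters' processing notes; versions were not given in the sources used here. RMA corrects background, normalizes probe signals between arrays and summarises them per probe set, and it compresses differences of dim genes.

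Probe sets were named through the platform annotation: of 35556, 21789 had 1 symbol, 1621 several and 12146 none, and the last 2 kinds were left out. The brightest probe set over 30 arrays stood for each of 19938 genes. Groups followed the labels. A model with 10 group means was fitted with limma 3.58.1 (lmFit and eBayes, 20 residual degrees of freedom, R 4.3.3), with 21 two-sided comparisons, each Benjamini-Hochberg adjusted over all genes; differences between responses were interaction contrasts of the same fit. The fit was tested on simulated data. Named genes were the 8 members, up to 4 called genes with the largest changes per list, any gene of the FoxO and Akt lists, and the 3 most alike by pattern. The members and lists were chosen with earlier results of these data known. With 3 arrays a group, their number limits the precision. Same-numbered replicates deviated together only weakly (27 of 135 pairs above 0.1, mean r 0.04, against -0.02 for other pairs), so the fit had no block. Alternatives covered the scaling, fold threshold, probe set, dim genes, prior, block, arrays in the fit and leaving out each array. Promoter windows came from RefSeq (GRCm38.p6).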

Additional observations from a re-analysis of the deposited data

Results flagged for a closer look

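For 7 results the change after injury differed between 2 groups by an interaction contrast in limma. The change at 60 h was less negative in old than in young cells for Foxo1, by 1.00 (adjusted p = 1.4e-09), and for Sesn1, by 1.03 (adjusted p = 2.7e-09). At 36 h it was less negative in YFP+ than in VCAM-sorted cells for Foxo1 (0.82), Foxo4 (0.71) and Sesn1 (0.85). For Sesn1 the change from QSCs was also less negative in YFP+ cells at 60 h (0.59) and at 84 h (0.81). Its QSC level was lower in that sort, at 9.82 against 10.35, and its levels at 60 h were 8.75 and 8.70.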

How the results depend on the processing

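Of the 21 counts of called genes among the 8, most depended on the fold threshold and few on other settings. With adjusted p alone, 8 of the 8 passed at 60 h in the VCAM sort, 6 and 8 between 36 and 60 h in the VCAM and YFP sorts, and 6 in each between 60 and 84 h. Between sorts 3, 7, 3 and 5 then passed in QSCs and at 36, 60 and 84 h, for the sort difference in response 6, 5 and 6, and for age 6 in QSCs, 4 at 60 h and 5 for the response. By that rule 59.7% of all genes passed at 60 h in the VCAM sort, 47.2% and 51.7% between 36 and 60 h, 28% and 39.1% between 60 and 84 h, 12.6% to 37.2% between sorts, 24.4% to 31.3% for the sort difference in response, and 38%, 27.9% and 31.3% for age. With a fold of at least 2, the counts from QSCs were 2 at 36 h and 3 at 84 h in the VCAM sort, 0 at 36 h and 3 at 84 h in the YFP sort, and 3 in old cells. The shares of all genes by that rule were 10.6% and 14.4% in the VCAM sort, 6.12% and 15% in the YFP sort, and 15.5% in old cells. The count was then 1 between 36 and 60 h and 0 between 60 and 84 h in the VCAM sort, 1 between 60 and 84 h in the YFP sort, 1 for old QSCs, 0 for old 60 h ASCs, 1 for the age difference in response, and 0 for the sort difference in response at each time. In the same order, 5.41%, 1.07%, 1.82%, 1.41%, 2.04% and 2.47% of all genes passed. For the sort difference in response 2.36%, 0.978% and 1.25% passed at 36, 60 and 84 h. Quantile normalization left 1 call between 36 and 60 h in the VCAM sort, and leaving out dim genes, which removed Trim63 and Klf15, left 1 between 60 and 84 h in each sort. Without single arrays the counts ran from 1 to 2 between 36 and 60 h in the VCAM sort, from 0 to 1 between sorts at 84 h, from 0 to 1 between ages at 60 h, and from 0 to 1 for the sort difference in the 60 h response.

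Values that changed sign were uncalled and near zero. Klf15 between sorts at 84 h was -0.022 after centring and -0.018 after quantile normalization, and -0.075 to 0.076 without single arrays. Trim63 in old cells at 60 h was 0.075 and 0.12 under the same 2 settings and -0.093 to 0.10 without single arrays, and its 60 h sort difference in response was 0.0021 after quantile normalization and -0.17 to 0.068. Without single arrays, Fbxo32 between ages at 60 h was -0.071 to 0.028, Sesn1 there -0.084 to 0.0053, Foxo4 between sorts at 84 h -0.073 to 0.028, and the Klf15 60 h sort difference -0.13 to 3.3e-06. Why these moved was not tested. With the replicate block all 168 values of single genes kept direction and call, Foxo1 at 60 h in the VCAM sort being -2.37, as they did with other probe sets, an intensity trend or only the compared groups in the fit. Centring changed the call or sign of 6 of 168 values and moved the median over all genes at 60 h by 0.10 in the VCAM and 0.11 in the YFP sort. Of 1200 values without 1 array, 1160 kept direction and call.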
